A study of Mus musculus with 24 samples.

Results

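Extracellular ATP and adenosine are read by leukocytes, heart and lung through a small set of surface proteins, and 10 of their genes are described here. Nt5e and Entpd1 encode ectonucleotidases, Adora1, Adora2a, Adora2b and Adora3 encode the adenosine receptors, P2rx4 and P2rx7 encode ATP-gated channels, and P2ry2 and P2ry6 encode nucleotide receptors coupled to G proteins. The genes were chosen by symbol, and all 10 were present among the 54658 symbols of both count tables. Male C57BL/6 mice of 7 to 12 weeks had received β-NMN, a precursor of NAD+, at 185 mg/kg/day in the peritoneal cavity, or saline as vehicle. In the first experiment, sepsis was set off by cecal ligation and puncture (CLP), a surgery that lets gut bacteria leak into the abdomen, and the heart and the lung of the same 3 vehicle and 3 β-NMN mice were taken on the following day. In the second, 6 vehicle and 6 β-NMN mice were given 1 mL of thioglycollate (TGC), a sterile irritant that draws leukocytes into the peritoneum, and their peritoneal cells were cultured for 6 h with E. coli before RNA was prepared. Every group had therefore met bacteria, and sham-operated mice and unstimulated cells were not analysed here. The sources name no sort of the peritoneal cells before sequencing.

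ATP that leaves stressed or dying cells acts on P2X channels and P2Y receptors as a danger signal. CD39, the product of Entpd1, degrades ATP and ADP to AMP, and CD73, the product of Nt5e, turns AMP into adenosine and can also remove the phosphate of NMN. Adenosine then acts on receptors that raise cyclic AMP (A2a and A2b) or lower it (A1 and A3), and in macrophages A2a signalling is known to dampen the output of inflammatory cytokines.

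Library totals ranged from 31126823 to 112456050 counts in peritoneal cells, from 27319513 to 68523239 in hearts and from 8915366 to 28356786 in lungs. Marker genes were in their labelled tissues: the summed level of 5 cardiomyocyte markers was 29611 to 52362 CPM (counts scaled to a common library total) in hearts and 0.836 to 4.72 in peritoneal cells, with 74.3 to 415 in lungs, and that of 4 alveolar type 2 markers was 21474 to 40533 CPM in lungs. Both organs of vehicle replicate 2 stood apart from the other libraries. Its heart had 12.9% of counts on mitochondrial genes against 18.2% to 22.7% in the other 5 hearts and the lowest cardiomyocyte sum, and its lung had the lowest total and 1335 CPM of macrophage markers against 3959 to 5459 in the other 5. Where leaving out this mouse ended a call, turned a direction or moved a value by much, the value without it is given too. In peritoneal cells, the composition of the libraries moved with treatment: 6 macrophage markers summed to between 5396 and 8180 CPM in vehicle and between 10086 and 11753 in β-NMN mice, 8 neutrophil markers to 111 to 318 against 20.8 to 52.1, and 4 fibroblast markers to 89.6 to 956 against 19.8 to 85.7. Markers of red cells went the other way (2.69 to 33.1 against 44.6 to 114 CPM). The share of counts on mitochondrial genes was 0.504% to 0.653% in vehicle and 0.599% to 0.886% in β-NMN mice, where only β-NMN replicate 6 lay within the vehicle range. At adjusted p below 0.05, 3 of 6 macrophage markers were higher with β-NMN, and 5 of 7 neutrophil (with 1 higher), 5 of 5 T cell, 4 of 4 fibroblast, 3 of 4 dendritic cell, 2 of 3 NK cell, 2 of 4 B cell, 2 of 3 endothelial and 1 of 4 mast cell markers were lower. Of 3 markers of large resident peritoneal macrophages tested, 2 were lower and 1 was higher, and 1 of 2 eosinophil markers was higher. No marker was at 0 in all libraries of a tissue. Some marker sums were also apart between treatments in hearts and lungs, although no single marker was called there. In hearts, the vehicle and β-NMN ranges were apart for cardiomyocyte (29611 to 46115 against 48052 to 52362 CPM), endothelial (758 to 781 against 796 to 955), dendritic cell (13.4 to 24.4 against 25.8 to 28.95), neutrophil (15.5 to 32.2 against 11.5 to 13.2) and platelet markers (12.8 to 29.2 against 7.15 to 12.2). In lungs they were apart for macrophage (1335 to 4260 against 4979 to 5459) and cardiomyocyte markers (252 to 415 against 74.3 to 245). The ranges of the other cell types overlapped in both organs. Among single genes tested, groups did not overlap at 23.1% in hearts and at 8.21% in lungs. In bulk RNA, fewer cells of a type and less RNA per cell cannot be told apart, and the part of these shifts in the results below was not tested.

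In peritoneal cells stimulated with E. coli, β-NMN treatment went with lower RNA of CD73, of both cyclic AMP-raising adenosine receptors and of both P2Y receptors, and with higher RNA of the P2X4 channel. Of the 10 genes, 9 passed the low-count filter and 6 were called by edgeR's quasi-likelihood test at an adjusted p below 0.05: Adora2b, Adora2a, P2ry6, Nt5e and P2ry2 fell and P2rx4 rose. Calls were common in this comparison, with 51.6% of the 14985 genes tested (27.9% lower and 23.7% higher). The 9 genes had a median of −0.60 (log2, β-NMN over vehicle), and all genes tested had one of −0.02. Entpd1, Adora3 and P2rx7 were not called, and Adora1 did not pass the filter.

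**Figure D1:**
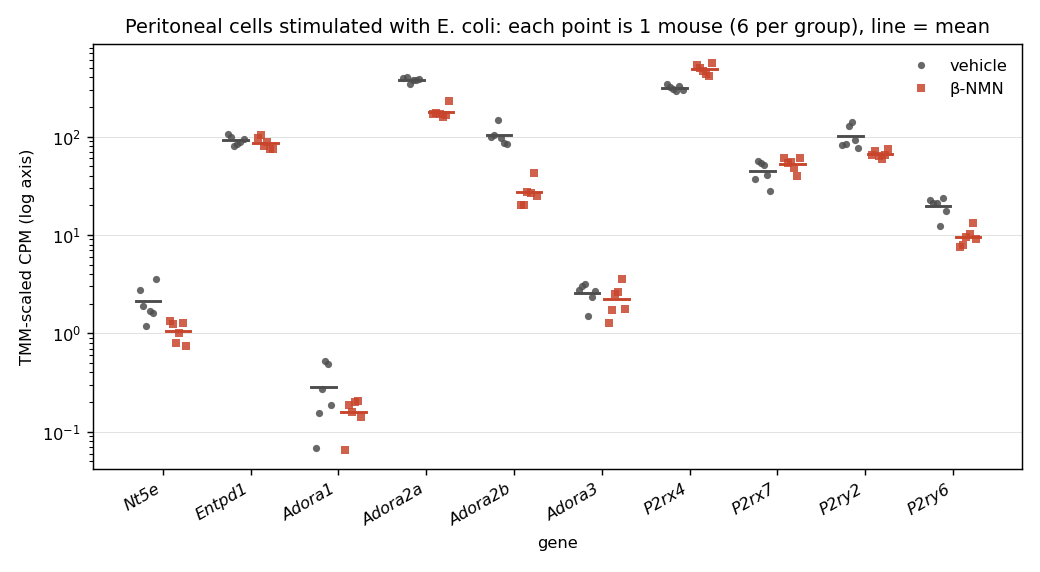
Level of each gene in E. coli-stimulated peritoneal cells as TMM-scaled CPM on a log axis, with 1 point per mouse (6 vehicle, 6 β-NMN) and a line at the group mean. The vehicle and β-NMN points of Adora2a, Adora2b and P2ry2 separate downwards and those of P2rx4 upwards, whereas those of the other 6 genes overlap.

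To show the sequences around the starts of genes that moved, the promoter windows of the strongest fall (Adora2b), the rise (P2rx4), the ectonucleotidase that fell (Nt5e) and a P2Y receptor (P2ry2) are printed from RefSeq, build GRCm38.p6. Each runs 5′ to 3′ from 250 bases before to 50 bases after a RefSeq start. The windows of Nt5e and P2ry2 lie inside the span that GENCODE gives these genes, whose outermost start is farther upstream. Capitals mark matches, on either strand, to 4 motifs: kappaB (GGGA, any 4 bases, then CC), AP-1 (TGANTCA), the half-site of the cyclic AMP response element (TGACG) and the hypoxia core (ACGTG).
Adora2b, chr11:62248734-62249033, plus strand: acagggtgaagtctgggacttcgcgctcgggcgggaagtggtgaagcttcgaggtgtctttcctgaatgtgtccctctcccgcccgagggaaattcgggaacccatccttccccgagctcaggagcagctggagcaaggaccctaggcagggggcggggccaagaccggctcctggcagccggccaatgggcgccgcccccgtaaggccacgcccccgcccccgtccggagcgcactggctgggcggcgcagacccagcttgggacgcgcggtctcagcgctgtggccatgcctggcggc
P2rx4, chr5:122707294-122707593, plus strand: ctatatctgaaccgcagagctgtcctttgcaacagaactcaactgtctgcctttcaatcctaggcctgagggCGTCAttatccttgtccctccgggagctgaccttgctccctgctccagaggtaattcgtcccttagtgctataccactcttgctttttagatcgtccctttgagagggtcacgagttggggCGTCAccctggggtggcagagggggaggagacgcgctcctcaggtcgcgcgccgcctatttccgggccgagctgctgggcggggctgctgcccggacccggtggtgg
Nt5e, chr9:88327359-88327658, plus strand: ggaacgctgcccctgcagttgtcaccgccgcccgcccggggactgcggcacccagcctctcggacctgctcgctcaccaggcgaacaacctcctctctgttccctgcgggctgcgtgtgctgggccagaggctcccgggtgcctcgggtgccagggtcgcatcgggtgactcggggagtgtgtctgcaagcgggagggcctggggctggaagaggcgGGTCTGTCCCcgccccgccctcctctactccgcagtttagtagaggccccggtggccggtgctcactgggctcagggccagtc
P2ry2, chr7:101012004-101012303, minus strand: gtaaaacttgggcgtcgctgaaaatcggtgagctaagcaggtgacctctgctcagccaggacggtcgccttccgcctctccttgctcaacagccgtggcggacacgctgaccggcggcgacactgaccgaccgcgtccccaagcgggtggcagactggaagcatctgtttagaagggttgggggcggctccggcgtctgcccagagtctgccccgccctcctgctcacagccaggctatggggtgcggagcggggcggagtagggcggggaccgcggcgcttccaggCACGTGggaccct
The Adora2b window held none of these 4 motifs. The P2rx4 window held the TGACG half-site at 2 positions, Nt5e held 1 kappaB match, and P2ry2 held ACGTG on both strands of 1 palindrome.

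Windows of 8 of the 10 genes, 12 in all because of alternative starts, were found in the RefSeq table. Among the 12 windows, kappaB was matched in 2 (Adora1 and Nt5e) and in 20.7% of the 32851 promoters of the table, AP-1 in 3 (Adora1, Adora3 and P2rx7) and in 7.81%, TGACG in 3 (of Entpd1 and P2rx4) and in 20.8%, and ACGTG in 3 (of Adora1 and P2ry2) and in 19.6%. The full cyclic AMP response element (TGACGTCA, which contains TGACG), the TATA box (TATAAA) and the interferon response motif (GAAA at both ends of any 2 bases) were matched in 0 of the 12 windows and in 1.79%, 13.6% and 3.44% of all promoters. The Sp1 box (GGGCGG) was matched in 7 of the 12 windows, from 6 genes, with 6 positions in the Adora2b window, and in 35.7% of all promoters. The PU.1-type ETS core (GAGGAAG) was matched in 3 of the 12 (Adora3, Entpd1 and P2rx7) and in 13.6% of all promoters. The 2 windows of P2ry2 overlap, so that the same ACGTG palindrome and the same Sp1 boxes are counted in both. These matches describe letters in a window, and binding was not measured.

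Among the ectonucleotidases, Entpd1 (CD39; chromosome 19, 40612366 to 40741602) was abundant and did not pass the test, whereas Nt5e (CD73; chromosome 9, 88327197 to 88372092) was scarce and fell. Entpd1 stood at a lowest, median and highest CPM of 80.2, 90.9 and 107 in vehicle mice and of 74.5, 83.5 and 104 in β-NMN mice. These ranges largely overlapped, and the log2 fold change was −0.10 with a 95% interval of −0.32 to 0.12 (edgeR adjusted p = 0.440). Nt5e was counted 52 to 363 times per vehicle library and 30 to 122 times per β-NMN library. Its CPM was 1.18, 1.79 and 3.55 (lowest, median, highest) in vehicle mice against 0.745, 1.12 and 1.34 in β-NMN mice. Of the vehicle mice, 1 (replicate 3) lay within the range of the β-NMN mice and the other 5 lay above it, and the fall was 1.96-fold (log2 −0.97, SE 0.26, edgeR adjusted p = 0.0064).

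Both adenosine receptors that raise cyclic AMP fell, and they were the most abundant adenosine receptors in these cells. Adora2a (A2a; chromosome 10, 75316877 to 75334784) had a lowest, median and highest CPM of 345, 379 and 403 in vehicle mice. In β-NMN mice the corresponding values were 156, 170 and 228. Every β-NMN value was below every vehicle value, and the fall was 2.13-fold (log2 −1.09, SE 0.09, edgeR adjusted p = 4.3e-07). Adora2b (A2b, the receptor that needs more adenosine to respond; chromosome 11, 62248984 to 62266453) had a lowest, median and highest CPM of 83.7, 97.9 and 149 in vehicle mice and 20.1, 26.0 and 43.0 in β-NMN mice. The groups lay far apart, and Adora2b showed the largest change of the 9 genes tested, a 3.81-fold fall (log2 −1.93, SE 0.19, edgeR adjusted p = 1.35e-06). The Adora2b window printed above was the one without a match to the marked motifs.

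Of the cyclic AMP-lowering adenosine receptors, Adora3 was scarce and Adora1 was barely detected. Adora3 (A3; chromosome 3, 105870858 to 105908926) had a lowest, median and highest CPM of 1.52, 2.7 and 3.14 in vehicle mice against 1.27, 2.15 and 3.60 with β-NMN. The groups overlapped, with a log2 fold change of −0.20 and a 95% interval of −0.71 to 0.32 (edgeR adjusted p = 0.527). Of its exonic bases, 20.9% are shared on the same strand with Tmigd3, so reads of these genes may not be told apart, although Tmigd3 itself was given at most 85 reads in a library. Adora1 (A1; chromosome 1, 134199223 to 134235431) was counted only 2 to 58 times in vehicle libraries and 6 to 17 times in β-NMN libraries, and was left out of the test. Its medians were 0.229 and 0.173 CPM, and the groups overlapped. With vehicle replicate 1 left out it passed the filter and had a log2 fold change of −1.05 (edgeR adjusted p = 0.046), a call that no other left-out library gave. Of its exonic bases, 20.1% overlap Mybph on the opposite strand, and whether the counting used strand is unknown.

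The ATP-gated channels lie 16.1 kb apart on the same strand of chromosome 5, and only P2rx4 was called. P2rx4 (P2X4, a calcium-permeable channel found largely on lysosomes of macrophages; 122707544 to 122729738) had a lowest, median and highest CPM of 291, 314 and 342 in vehicle mice and of 415, 481 and 556 in β-NMN mice. Every β-NMN mouse was above every vehicle mouse, and the rise was 1.53-fold (log2 0.62, SE 0.09, edgeR adjusted p = 5.56e-05). P2rx7 (P2X7, which opens at high ATP and triggers the NLRP3 inflammasome; 122643911 to 122691432) stood at 28.1, 45.8 and 57.1 CPM in vehicle mice and 39.5, 54.3 and 61.2 in β-NMN mice. These groups overlapped, with a log2 fold change of 0.24 and a 95% interval of −0.10 to 0.58 (edgeR adjusted p = 0.221). The difference between the changes of the neighbours was not tested. Within a library and per kb of exon, P2rx4 exceeded P2rx7 by a median of 5.89 times in vehicle mice (range 4.77 to 8.97) and of 7.63 times in β-NMN mice (range 7.17 to 8.94).

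Both P2Y receptors, which lie 21.9 kb apart on chromosome 7, fell. P2ry2 (P2Y2, a receptor for ATP and UTP; 100996568 to 101012866) had a lowest, median and highest CPM of 75.9, 88.7 and 139.6 in vehicle mice and of 58.9, 64.6 and 74.8 in β-NMN mice. The groups did not overlap but nearly touched, and the fall was 1.52-fold (log2 −0.60, SE 0.14, edgeR adjusted p = 0.00264). P2ry6 (P2Y6, a receptor for UDP; 100937630 to 100974649) stood at 12.4, 21.2 and 23.9 CPM in vehicle mice and at 7.51, 9.39 and 13.1 in β-NMN mice. The groups overlapped through a single mouse on each side, and the fall was 2.07-fold (log2 −1.05, SE 0.16, edgeR adjusted p = 0.000102).

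Groups did not overlap at 4 of the 10 genes (3 lower, 1 higher), where 26.6% of all genes tested had no overlap (14% lower and 12.6% higher). The 6 calls were also made when any 1 library was left out. Depth was uneven between libraries, with 3 vehicle and 2 β-NMN libraries between 90571560 and 112456050 counts and the other 7 between 31126823 and 53319385. Among the deeper libraries alone 4 of the 6 genes were called, and Nt5e (log2 −0.76, edgeR adjusted p = 0.183) and P2ry2 (log2 −0.53, edgeR adjusted p = 0.131) were not. Among the shallower libraries alone 5 were called, and Nt5e was not (log2 −0.98, edgeR adjusted p = 0.0564).

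Per kb of exon, the order of the genes within vehicle peritoneal cells was Adora2a (124 ± 6.52 CPM per kb, SD, n = 6), Adora2b (55.9 ± 12.8), P2rx4 (44.8 ± 2.84), P2ry2 (25.5 ± 6.71), Entpd1 (16.5 ± 1.82), P2rx7 (7.49 ± 1.89), P2ry6 (6.87 ± 1.45), Adora3 (0.691 ± 0.159), Nt5e (0.246 ± 0.102) and Adora1 (0.0490 ± 0.0324). Neighbours in this order whose ranges over mice overlapped were Adora2b and P2rx4, P2rx7 and P2ry6, and Adora3 and Nt5e. In β-NMN mice the order differed at the top: P2rx4 (68.6 ± 8.01 CPM per kb) stood above Adora2a (58.1 ± 8.21), with overlapping ranges, and Adora2b (14.7 ± 4.57) had moved from the second to the fifth place, beside Entpd1 (15.4 ± 2.12) and P2ry2 (16.8 ± 1.45). These places depend on the length used. By the longest transcript, mean P2rx4 (80.8 CPM per kb) was above Adora2b (55.9) already in vehicle mice. In β-NMN mice mean P2rx4 was then 124 and mean Adora2a 68.5. Within a library, Adora2a exceeded Adora2b per kb by a median of 2.36 times in vehicle mice (range 1.4 to 2.76) and 4.43 times in β-NMN mice (range 2.35 to 5.48). Entpd1 exceeded Nt5e per kb by a median of 79.2 times in vehicle mice (range 40.9 to 105) and 132 times in β-NMN mice (range 90.1 to 155). With the longest transcript as the length, these medians were 48.6 and 80.8 times. CD39 RNA was therefore far above CD73 RNA in every peritoneal library, whichever the treatment.

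**Figure D2:**
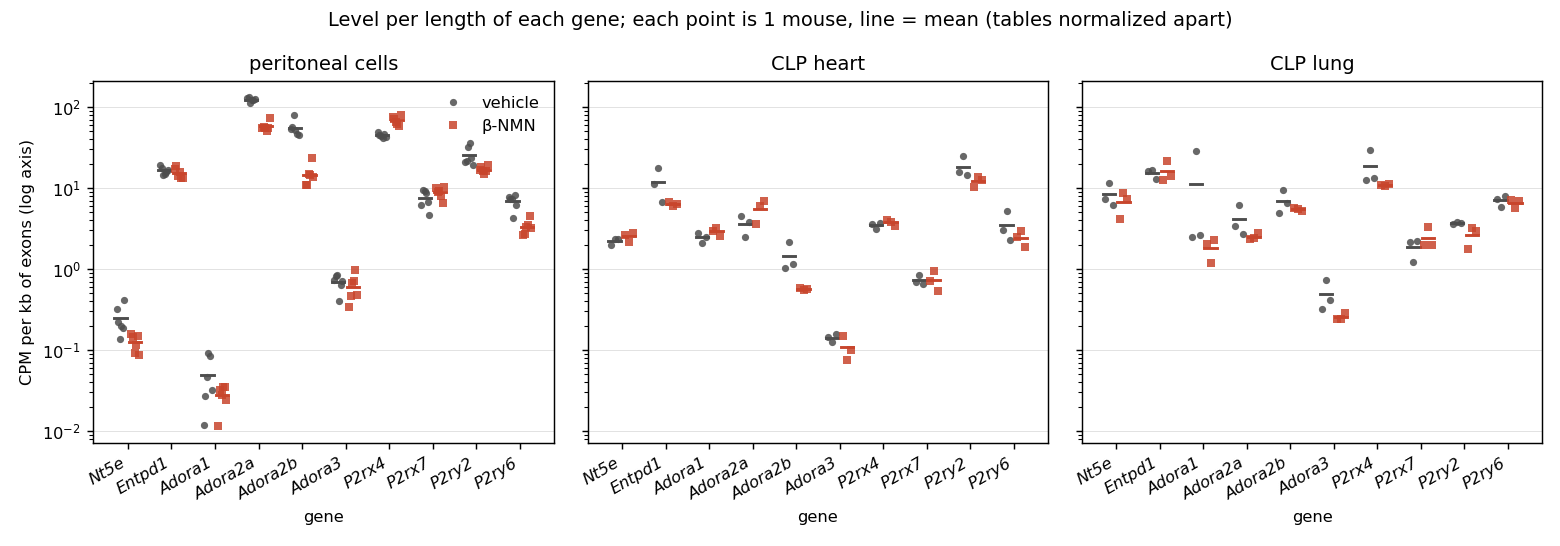
Level per length of the 10 genes as CPM per kb of merged exons, on a log axis, in peritoneal cells, CLP hearts and CLP lungs, with 1 point per mouse and a line at the group mean. Adora2a, Adora2b and P2rx4 lead in vehicle peritoneal cells and Nt5e and Adora1 lie at the bottom there, while P2ry2 leads in hearts; the peritoneal table was normalized apart from the CLP table.

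The other genes of extracellular nucleotide handling changed in both directions in peritoneal cells, where 51.6% of all genes tested were called. Of 8 other ectonucleotidases, 5 passed the filter and 4 were called, with a median log2 fold change of −0.99. Enpp1, which splits ATP to AMP, rose (log2 0.96, SE 0.11), from 5.98 to 8.38 CPM in vehicle mice to 12.5 to 16.3 in β-NMN mice. Acpp, an acid phosphatase that like CD73 makes adenosine from AMP, fell (log2 −0.99, SE 0.16), and so did Enpp2, the lysophospholipid-producing autotaxin (log2 −1.70, SE 0.41). Entpd3 fell at a low level (log2 −2.05, SE 0.42), with 0.411 to 0.778 CPM in vehicle mice and 0.0510 to 0.358 in β-NMN mice. Of the genes of nucleotide release, 4 were tested and 2 were called: Gja1, which encodes the hemichannel protein connexin 43, fell from 33.4 to 93.4 CPM in vehicle mice to 7.30 to 19.6 in β-NMN mice (log2 −2.60, SE 0.27), and Lrrc8a fell (log2 −0.73, SE 0.21). The ATP-release channel Panx1 had a log2 fold change of 0.11 and was not called.

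Genes that clear adenosine from the extracellular space or degrade it were split. Of 13, 11 were tested, 4 rose and 3 fell, with a median log2 fold change of −0.04. The nucleoside carriers Slc29a1 (log2 0.99, SE 0.13) and Slc29a3, a lysosomal carrier (log2 1.04, SE 0.14), rose with no overlap between groups. Adenosine deaminase, Ada, fell from 1.32 to 2.45 CPM in vehicle mice to 0.512 to 1.27 in β-NMN mice (log2 −1.06, SE 0.23), and the AMP deaminase Ampd3 also fell (log2 −1.33, SE 0.27).

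Of 12 other nucleotide receptors, 7 passed the filter and 5 were called, 1 higher and 4 lower, with a median of −0.31. P2ry1, an ADP receptor, rose from 0.520 to 0.805 CPM in vehicle mice to 1.73 to 2.66 in β-NMN mice (log2 1.65, SE 0.18). P2ry10, a receptor for lysophosphatidylserine despite its name (log2 −1.98, SE 0.21), and P2ry13, an ADP receptor (log2 −1.96, SE 0.31), fell with no overlap between groups. Of 7 partners of P2X7, 2 rose and 2 fell, with a median of 0.13. Nlrp3, the inflammasome sensor, fell from 742 to 1247 CPM in vehicle mice to 84.5 to 353 in β-NMN mice (log2 −2.67, SE 0.33), and Il1b, the cytokine it releases, fell (log2 −3.17, SE 0.25), whereas the adaptor Pycard (log2 1.26, SE 0.17) and the NLRP3-binding kinase Nek7 (log2 0.81, SE 0.07) rose. Of 10 G protein and adenylyl cyclase genes, 3 were called: Adcy7, a cyclase abundant in leukocytes, rose (log2 0.97, SE 0.09), and Adcy6 (log2 −2.27, SE 0.18) and Gnai3 (log2 −0.36, SE 0.08) fell. The median of this list was 0.16.

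Over the 12 peritoneal libraries, the genes whose deviations from their group mean were most like those of each gene were ranked by Pearson's r among 9638 genes, as a description over libraries that share depth and cell makeup. The closest were Adnp2 for Adora2a (r = 0.96), Cisd3 for Adora2b (r = 0.92), Tmem192 for P2rx4 (r = 0.92), Setd3 for P2rx7 (r = 0.95), Zfp653 for P2ry2 (r = 0.97), Slc16a1 for P2ry6 (r = 0.89), Rrp1b for Nt5e (r = 0.92), Nfe2 for Entpd1 (r = 0.93) and Rac1 for Adora3 (r = 0.90). The second for P2rx4 was Atp6v1b2 (r = 0.91), a subunit of the lysosomal proton pump, and the second for Nt5e was Tnfrsf18 (r = 0.92). For Adora2a, whose β-NMN replicate 6 stood apart from its group, r with Adnp2 was 0.81 without that mouse, and Spearman's rho over all 12 was 0.83.

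In CLP hearts, no gene of the set was called, and 0% of the 16245 genes tested passed an adjusted p of 0.05 with edgeR. At an unadjusted p below 0.05, 3 of the 10 were counted (Adora2b, Entpd1 and P2ry2, all with lower values in β-NMN mice), against 11.3% of all genes tested. Without vehicle replicate 2 it was 2 of the 10 (Adora2b and Entpd1), and the share of all genes in that fit was not taken. DESeq2 called 1 of the 10 (Adora2b) and 1.74% of all genes. The 10 log2 estimates had a median of −0.21 (−0.05 without vehicle replicate 2), and those of all genes one of −0.01. An exact permutation test of 3 against 3 mice cannot give a p below 0.1.

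Per kb of exon, P2ry2 led in hearts, and Entpd1 came second in vehicle hearts, while in β-NMN hearts its range overlapped that of Adora2a. Entpd1 had 62.1, 99.9 and 37.5 CPM in vehicle replicates 1 to 3 and 37.1, 33.4 and 35.4 in the β-NMN hearts. Each β-NMN value lay below each vehicle value, although vehicle replicate 3 stood only just above, and the log2 fold change was −0.91 with a 95% interval of −1.69 to −0.14 (edgeR adjusted p = 0.435). Without vehicle replicate 2 it was −0.51 (edgeR adjusted p = 0.442). P2ry2 had 62.2, 98.2 and 57.1 CPM in vehicle hearts and 40.5, 54.3 and 50.1 in β-NMN hearts. The groups again did not overlap, with a log2 fold change of −0.59 (95% interval −1.14 to −0.04, edgeR adjusted p = 0.435), and −0.31 without vehicle replicate 2.

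Among the heart's adenosine receptors, Adora2b was the lowest but for Adora3 and had the largest fold change. It had 1.92, 4.01 and 2.12 CPM in vehicle hearts and 1.08, 1.02 and 1.04 in β-NMN hearts, with 29 to 213 reads per library. No β-NMN heart reached the lowest vehicle heart, and the log2 fold change was −1.36 (95% interval −2.17 to −0.55, edgeR adjusted p = 0.435, DESeq2 adjusted p = 0.0320). Without vehicle replicate 2 it was −0.96, with an edgeR adjusted p of 0.238. Adora2a pointed the other way with 13.8, 7.58 and 11.8 CPM in vehicle hearts against 11.1, 18.4 and 21.2 in β-NMN hearts, and the groups overlapped (log2 0.61, 95% interval −0.11 to 1.33, edgeR adjusted p = 0.452). Adora1, the receptor known for slowing the heart beat, had 12.1 to 16.1 CPM in vehicle and 14.9 to 18.5 in β-NMN hearts and a log2 fold change of 0.24 (0.13 without vehicle replicate 2).

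Of the remaining genes in hearts, Nt5e (17.04 to 20.1 CPM in vehicle, 18.6 to 24.1 in β-NMN hearts), P2rx4 (22.1 to 25.9 against 24.2 to 28.6), P2rx7 (3.93 to 5.08 against 3.23 to 5.69), P2ry6 (6.61 to 15.2 against 5.44 to 8.43) and Adora3 (0.470 to 0.582 against 0.277 to 0.559) all overlapped between groups, with log2 fold changes from −0.53 to 0.19. Without vehicle replicate 2, that of P2ry6 moved from −0.53 to −0.14, that of P2rx4 from 0.12 to 0.04, that of P2rx7 from −0.00038 to 0.11 and that of Adora2a to 0.40. Groups did not overlap at 3 of the 10 genes in hearts, all lower, where 23.1% of all genes had no overlap (11.5% lower). The heart of vehicle replicate 2 gave the highest value of its organ for Entpd1, P2ry2, P2ry6 and Adora2b and the lowest for Adora1, Adora2a and P2rx4. The same library had 1710 CPM of fibroblast markers against 754 to 1074 in the other 5 hearts, 13.6 CPM of mast cell markers against 1.64 to 2.58, 4.83 CPM of B cell markers against 0.446 to 1.61 and 199 CPM of macrophage markers against 254 to 460. Their part in these values was not tested.

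In CLP lungs, no gene of the set was called either, with 0% of 17008 genes passing an adjusted p of 0.05 with edgeR, 301 genes at an unadjusted p below 0.05 (1.77%) and 9 called by DESeq2 (0.0529%). At an unadjusted p below 0.05, 1 of the 10 genes was counted, Adora1. Without vehicle replicate 2 the count was 0, and the share of all genes in that fit was not taken. The log2 estimates had a median of −0.41 (−0.22 without vehicle replicate 2), and those of all genes one of 0.00057, and 8 of the 10 estimates were negative. Groups did not overlap at 4 of the 10, all lower with β-NMN, where 8.21% of all genes had no overlap (3.75% lower).

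Those 4 were Adora1, P2rx4, Adora3 and P2ry2. Leaving out a mouse cannot make groups overlap that were apart, so their separation without vehicle replicate 2 says nothing more. P2ry6 was also apart then, since its lowest vehicle value was that of this mouse. The share of all genes apart without this mouse was not taken. The estimates of Adora1, P2rx4 and Adora3 were smaller without vehicle replicate 2. Adora1 had 14.5, 167 and 15.2 CPM in vehicle lungs 1 to 3 and 11.8, 6.92 and 13.1 in β-NMN lungs. The lung of vehicle replicate 2 was far above every other, and the log2 fold change of −2.62 (95% interval −4.99 to −0.25, edgeR adjusted p = 0.969) became −0.49 without this mouse (edgeR adjusted p = 0.991). P2rx4 had 88.1, 209.6 and 93.3 CPM in vehicle lungs and 77.5, 73.9 and 79.8 in β-NMN lungs. Its log2 fold change was −0.76 (SE 0.37) and −0.23 without vehicle replicate 2. Adora3 had 1.18, 2.74 and 1.53 CPM against 0.914, 0.889 and 1.06, from 15 to 37 reads, and its log2 fold change was −0.89 (SE 0.47), or −0.50 without that mouse. P2ry2 had 14, 15.2 and 14.5 CPM against 6.88, 12.7 and 11.7, with a log2 fold change of −0.47 (SE 0.30). This was −0.44 without vehicle replicate 2, and −0.63 to −0.25 with any 1 library left out. The lung of vehicle replicate 2 also had 682 CPM of endothelial markers against 1311 to 1930 in the other 5 lungs and 9351 CPM of alveolar type 1 markers against 5138 to 7397, and their part in these values was not tested.

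For the others in lungs, ranges overlapped. Nt5e was well expressed, with 52.6 to 100.0 CPM in vehicle and 35.4 to 74.5 in β-NMN lungs (log2 −0.32, 95% interval −1.19 to 0.56, and −0.0010 without vehicle replicate 2), and Entpd1 had 72.6 to 93.0 against 71.0 to 119.7 (log2 0.07, 95% interval −0.58 to 0.72, and 0.13 without that mouse). Adora2a (8.24 to 19.1 against 7.13 to 8.58 CPM) and Adora2b (8.97 to 17.5 against 9.57 to 10.5 CPM) had log2 fold changes of −0.71 and −0.35, which became −0.29 and −0.07 without vehicle replicate 2. P2rx7 (7.37 to 13.1 against 11.7 to 19.9 CPM) and P2ry6 (16.9 to 23.0 against 16.4 to 20.6 CPM) had log2 fold changes of 0.37 and −0.10, or 0.15 and −0.21 without that mouse. The intervals in lungs were wide: that of P2rx4 reached from −1.64 to 0.13 and that of Adora2a from −1.57 to 0.16 on the log2 scale, but without vehicle replicate 2 their SE was 0.17 and 0.22 in place of 0.37 for both.

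**Figure D3:**
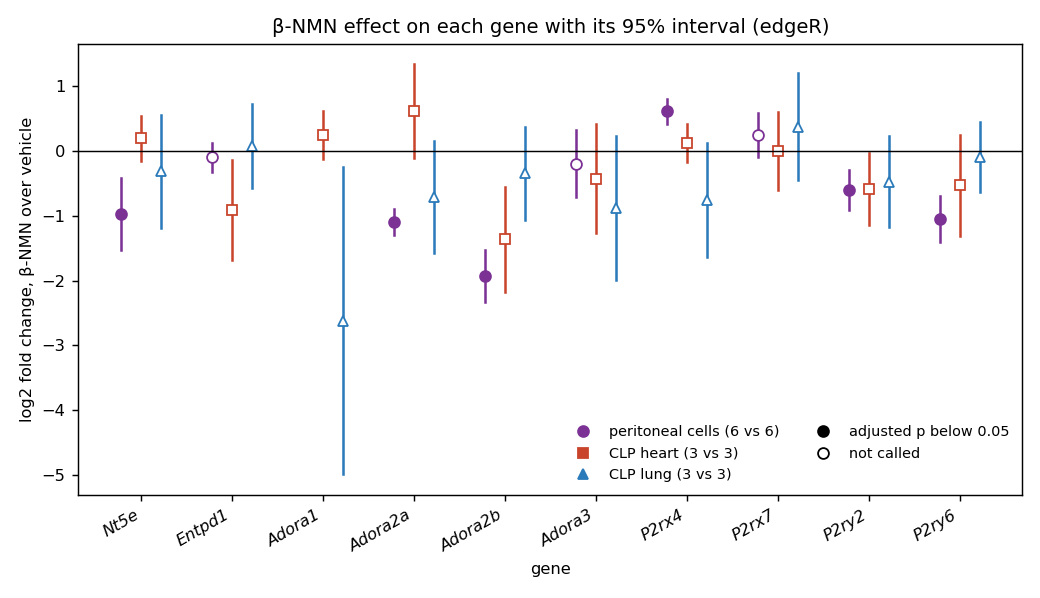
Log2 fold change (β-NMN over vehicle) of each gene with its 95% interval in peritoneal cells, CLP hearts and CLP lungs, where filled symbols have an edgeR adjusted p below 0.05 and open symbols do not. The 6 filled symbols all belong to peritoneal cells, Adora1 has no peritoneal estimate, and its lung interval runs from −4.99 to −0.25.

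Since hearts and lungs stand in 1 table, the difference between their β-NMN effects was tested as an interaction. None of the 10 genes was called (0% of 18318 genes tested), and 5 of the 10 had an unadjusted p below 0.05 against 4.35% of all genes. These were Adora1 (lung minus heart log2 −2.77), Adora2a (−1.27), Adora2b (1.04), Entpd1 (1.00) and P2rx4 (−0.84), each with an edgeR adjusted p of 0.960. Without vehicle replicate 2 they were −0.65, −0.72, 0.86, 0.62 and −0.31. With the mouse as a block, their adjusted p was 0.948 and 0 were called.

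The organs were then compared with each other, whatever the treatment. Over the 6 mice, 8 of the 10 genes were called between lungs and hearts, in a comparison that called 64.8% of all 18318 genes (35.9% higher in lungs, 28.9% higher in hearts). Nt5e, Adora2b, Adora3, P2rx4, P2rx7 and P2ry6 were higher in lungs, and Adora2a and P2ry2 were higher in hearts. With the mouse as a block, 6 were called: Adora3 (edgeR adjusted p = 0.0295, and 0.0625 with the block) and P2ry6 (0.0429, and 0.0799 with the block) were not. Adora3 was also not called with vehicle mouse 1, 2 or 3 or β-NMN mouse 2 or 3 left out (log2 0.51 to 0.92), nor P2ry6 with vehicle mouse 1 or 3 or any of the 3 β-NMN mice left out (log2 0.35 to 0.66). With vehicle mouse 2 left out, P2ry6 was called with a log2 difference of 0.70 (edgeR adjusted p = 0.00135).

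CPM values between organs are on the scale of the joint fit of all 12 CLP libraries, so they differ from those of the separate fits above. P2ry2 showed the widest gap, with 51.1 to 122 CPM in the 6 hearts and 5.35 to 11.7 in the 6 lungs. The organs did not overlap, and hearts were 7.65-fold above lungs (lung minus heart log2 −2.94, SE 0.20, with the lung lower in 6 of 6 mice). Adora2b had 1.30 to 4.99 CPM in hearts and 7.29 to 12.8 in lungs. The organs did not overlap here either, and lungs were 4.22-fold above hearts (log2 2.08, SE 0.23, higher in 6 of 6 mice). Within mice the difference was 1.55, 1.35 and 1.86 log2 units in vehicle animals and 2.53, 2.58 and 2.52 in β-NMN animals, so that the groups were apart, while the interaction was not called as given above.

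P2rx4 had 27.5 to 36.2 CPM in hearts and 58.8 to 154 in lungs, 2.43-fold higher in lungs (log2 1.28, SE 0.19, 6 of 6 mice), and 0.91 on the log2 scale without vehicle replicate 2. Nt5e had 21.8 to 30.4 CPM in hearts and 27.5 to 73.3 in lungs (log2 0.97, SE 0.20, higher in 5 of 6 mice, and 0.75 without vehicle replicate 2). Adora2a was higher in hearts, with 9.44 to 26.7 CPM against 5.54 to 13.98 in lungs (log2 −1.17, SE 0.24, lower in lungs in 5 of 6 mice, and −1.57 without vehicle replicate 2). P2rx7 was 1.83-fold higher in lungs (log2 0.87, SE 0.24, 5 of 6 mice). In the mouse of vehicle replicate 2 the sign went against that of the other 5 mice for Adora1, Adora2a, P2rx7 and P2ry6.

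Entpd1 did not differ by the test (log2 0.18, 95% interval −0.30 to 0.66, edgeR adjusted p = 0.492). Adora1 gave a log2 difference of 0.04 over all mice (edgeR adjusted p = 0.945), but with vehicle replicate 2 left out it was −1.13, higher in hearts (edgeR adjusted p = 8.4e-05). In 5 of 6 mice Adora1 was lower in the lung, by 0.57 to 2.09 log2 units, and in vehicle replicate 2 it was higher in the lung by 3.01. Per kb of exon and over all 6 mice of the joint fit, hearts were led by P2ry2 (19.4 ± 6.23 CPM per kb, SD, n = 6) and Entpd1 (11.5 ± 5.83), whereas the order in lungs depended on the group. In the fits of lungs alone, P2rx4 in vehicle lungs had 12.5, 13.3 and 29.8 CPM per kb, the highest in vehicle replicate 2, and overlapped Entpd1 (13.01 to 16.7), while in β-NMN lungs Entpd1 (12.7 to 21.4) stood above P2rx4 (10.5 to 11.4). Entpd1 exceeded Nt5e per kb by a median of 5.62 times in vehicle hearts and 2.53 times in β-NMN hearts, and by 2.13 and 2.48 times in vehicle and β-NMN lungs. With the longest transcript as the length these medians were 3.45, 1.55, 1.31 and 1.52 times. In the lung of vehicle replicate 2, Nt5e was then above Entpd1 (ratio of Entpd1 to Nt5e 0.881). Per kb, Adora2a exceeded Adora2b in all 6 hearts (1.14 times in vehicle replicate 2 and 3.34 to 12.3 times in the other 5), while Adora2b exceeded Adora2a in all 6 lungs (1.41 to 2.45 times).

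**Figure D4:**
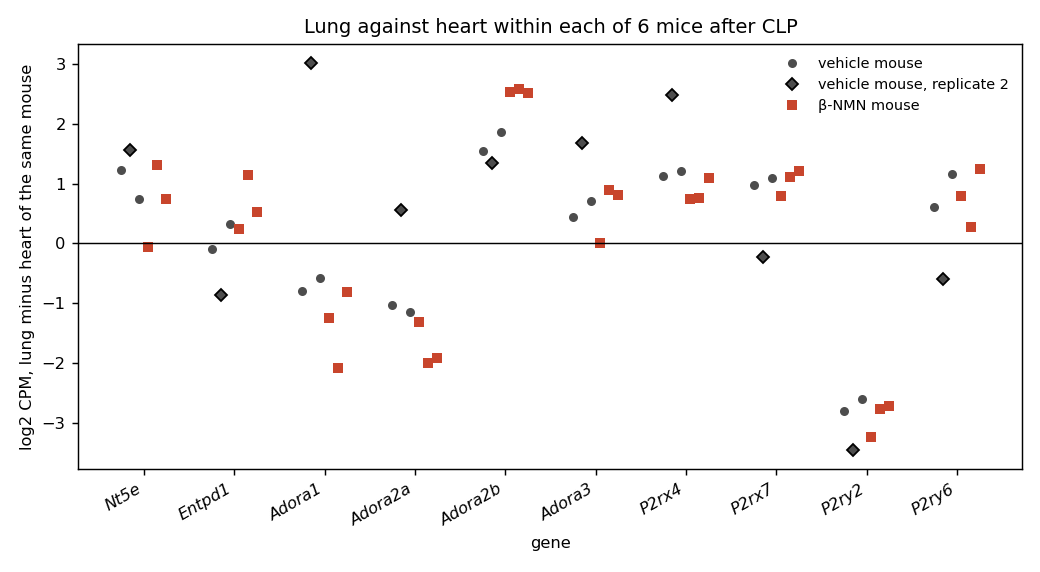
Difference of log2 CPM between the lung and the heart of the same mouse for each gene, with 1 point for each of the 6 mice after CLP and vehicle replicate 2 drawn as a diamond. Adora2b, Adora3 and P2rx4 lie above 0 and P2ry2 below 0 in all 6 mice, and the diamond stands on the other side of 0 from the remaining mice for Adora1, Adora2a, P2rx7 and P2ry6.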

How the data were processed

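RNA of 24 libraries (12 of peritoneal cells, 12 of hearts and lungs after CLP) was sequenced after poly(A) selection. The authors aligned reads with STAR (2.7.3a per the labels) to mm10 and counted them with featureCounts 2.0.0, and the values they deposited are raw counts per gene symbol, in 1 table for peritoneal cells and 1 for CLP organs. Annotation and strand option of the counting were not given in the sources used here, which matters for overlapping genes. Groups came from the sample labels. The labels give replicate number 3 to both of 2 β-NMN hearts, and that of the mouse whose lung is replicate 2 was numbered 2. The source label of the CLP samples names thioglycollate, against their titles, tissue labels and the study's methods, which give CLP, and CLP was used. Where nothing ties libraries to separate cultures beyond the mouse, p-values measure the spread between these mice. Every pair of libraries within a group differed by more than sampling noise, and pairs across groups were not compared.

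Separate fits for the 3 tissues used edgeR 4.0.16 in R 4.3.3 (filterByExpr, TMM scaling, the older form of the quasi-likelihood F-test), with Benjamini-Hochberg adjustment over all genes tested and a threshold of 0.05, after the script had been tested on simulated data. The difference of effects between organs and the difference between organs were fitted over all 12 CLP libraries. CPM values are scaled by TMM, log2 CPM values use a prior count of 2, and levels per kb use merged exons of GENCODE M21 (GRCm38). Intervals are at 95%. Whether groups overlapped was read from log2 CPM. Likeness was taken over deviations of log2 CPM from the group mean. Alternatives were other scaling, no filter, the newer and robust fits, DESeq2 1.42.0, limma 3.58.1 (voom), a replicate or mouse block, and each library left out. The depth classes were added after the data had been seen. Hearts and lungs came from the same 6 mice by their labels, and the correlation of deviations between the organs of 1 mouse was 0.057 to 0.172. The genes, the lists of other pathway genes (of which the 2 to 4 with the smallest p are named) and the marker lists were chosen with earlier results of these data known.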

Additional observations from a re-analysis of the deposited data

Results flagged for a closer look

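In peritoneal cells, 1 β-NMN mouse stood apart from the other 5 at each of 2 genes by the gap to its nearest neighbour over the range of the group. For Adora1 it was replicate 1, the lowest, with a ratio of 0.639, at 0.0659 CPM or 6 reads. For Adora2a it was replicate 6, the highest, with a ratio of 0.694, at 228 CPM, still below every vehicle mouse. Of 20 such groups tested, chance flags about 1 in 20.

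P2rx4 was higher in all 6 β-NMN mice in peritoneal cells and lower in all 3 β-NMN mice in lungs (log2 −0.756, and −0.23 without vehicle replicate 2, not called). The difference between these effects was not tested, as the tables were made and scaled apart.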

How the results depend on the processing

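In peritoneal cells, 194 of 198 alternative estimates kept their direction and side of the threshold. The 6 calls among the genes were made with other scaling, no filter, the other tests and the block, with a 7th, Adora1, when vehicle replicate 1 was left out, and 7132 to 8049 genes were called with 1 library left out. The shallower libraries alone gave 4244 genes against 7733, with fewer samples in the fit, and the deeper ones alone turned Entpd1 to 0.24. In hearts, genes called were 0 with edgeR, 3 without the filter, 283 with DESeq2 (1 of them, Adora2b, in the set), 3 with limma-voom and 0 to 5 with 1 library left out, the 5 without vehicle replicate 2. In lungs they were 9 with DESeq2 and 7 with limma-voom. The cause was not tested.

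Some uncalled estimates changed sign. In hearts, P2rx7 became 0.0077 with other size factors, 0.0099 without the filter, 0.0066 with DESeq2, 0.10 with limma-voom and −0.24 to 0.19 with 1 library left out. In lungs, limma-voom gave 0.00055 for Nt5e (−0.32 with edgeR) and −0.0075 for Entpd1 (0.07), and 1 library left out gave −0.18 to 0.21 for Entpd1 and −0.21 to 0.018 for P2ry6. For the difference of effects between organs, limma-voom gave 0.17 for Adora3 (−0.43 with edgeR) and −0.060 for P2rx7 (0.36), and 1 mouse left out gave −0.15 to 0.31 for P2ry2 and −0.10 to 0.79 for P2ry6. Between organs, Adora1 became −0.037 without the filter, −0.96 with limma-voom, −0.49 with the mouse as a block and −1.13 to 0.31 with 1 mouse left out. With the longest transcript as the length, 6 of 10 genes kept their rank in vehicle peritoneal cells, 6 in vehicle hearts and 8 in vehicle lungs, and 10, 5 and 10 in the β-NMN groups.

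Replicate numbers are shared across treatments as numbers only, with correlations of same-numbered deviations from −0.17 to 0.13 in peritoneal cells, 0.073 to 0.24 in hearts and −0.52 to 0.30 in lungs. Every heart correlated best with its own number, which is a hint from the data and not the design. The replicate block gave 7010 genes and 6 of the set in peritoneal cells and 0 in hearts and lungs. The mouse block left 6 of 8 calls between organs and 0 for the difference of effects, and changed no other call. Adora1 had too few reads in peritoneal cells to pass the filter.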
